A study of Mus musculus with 47 samples.

Results

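The zinc and manganese transporter genes Slc30a1, Slc30a5, Slc30a10, Slc39a2, Slc39a3, Slc39a4, Slc39a5, Slc39a10, Slc39a11 and Slc39a14 were described in mouse liver. The mice had sunscreen applied weekly over 36 weeks or were controls without it. They were chosen by gene symbol, as the members of the Slc30 and Slc39 families named for this purpose, and are 10 of the 6889 genes with a symbol in the value table used here. All 10 were measured, each by 1 probeset. The mean level of 9 of them lay above that of the median transcript, 5.24 on the log2 scale, and that of Slc39a10 (4.90) did not.

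All groups were female SKH:QS mice, an inbred hairless and albino strain with a working immune system. Treatment began when the mice were 8 weeks old and was given weekly, 30 times within 36 weeks, and every group, controls included, wore Elizabethan collars while it lasted. The groups had no sunscreen (Control), a sunscreen with ZnO nanoparticles alone (ZnO), a sunscreen with TiO2 nanoparticles mixed with organic filters (TiO2) or a sunscreen with organic filters alone (Organic), each without ultraviolet radiation (-UVR) or with UVR of 29 kJ/m2 at each treatment (+ UVR). The sunscreens were commercial products, so a ZnO or TiO2 group carries the whole product and not the particle alone. Sunscreen was washed off at the end of each treatment, and mice without sunscreen were washed too. Liver RNA from 1 mouse was measured on each of 47 Affymetrix Mouse Gene 1.0 ST arrays, 6 for each of the 8 groups except ZnO + UVR with 5, and the number of arrays limits the precision of every value. Several mice of ZnO + UVR and of Control + UVR did not reach the endpoint, so the arrays of these groups come from mice that did. Cage and treatment cannot be told apart if each group shared a cage, as the study's methods say, while the sample labels give individual housing.

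Zinc and manganese cross membranes through 2 families of carriers that work in opposite directions. Members of the Slc30 (ZnT) family move metal out of the cytosol, across the cell surface or into vesicles, and members of the Slc39 (ZIP) family bring it in. The liver clears both metals from portal blood, stores zinc and passes manganese into bile, and a zinc load is known to raise Slc30a1 and the metallothioneins through the transcription factor Mtf1, which binds metal response elements. No metallothionein gene was measured in the table used here.

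The promoters of the members were read because the ZnO groups ask about a zinc load and because Slc30a10, which exports manganese, was the member that changed. RefSeq promoters (GRCm38.p6) were listed for 8 of the 10 members, not for Slc39a4 and Slc39a14, and gave 11 windows of the 250 bases before a start, since 3 genes had 2 promoters. The window of Slc30a10 lies at chr1:185454598-185454847 on the plus strand, just before the gene (chromosome 1, 185454848 to 185468762). Capitals mark the core of the metal response element, written TGCACNC or TGCGCNC and searched on both strands.
Slc30a10: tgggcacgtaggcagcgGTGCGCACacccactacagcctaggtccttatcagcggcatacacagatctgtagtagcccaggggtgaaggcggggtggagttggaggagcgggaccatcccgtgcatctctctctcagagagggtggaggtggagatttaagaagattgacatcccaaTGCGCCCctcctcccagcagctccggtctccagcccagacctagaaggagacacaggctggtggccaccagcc

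The first capital run of Slc30a10 holds overlapping matches, from 233 to 227 bases before the start on the opposite strand and from 232 to 226 on the same strand. The later match lies 73 to 67 bases before the start. Matches in the other members were written with 10 bases on either side and in the orientation of the match, so that the cores can be set side by side.
Slc30a1: aactttgcttTGCACTCggaacccccg
Slc30a5: atcctgcgccTGCGCGCtggtggacac
Slc39a3: atttggtagcTGCACTCatgtttagaa
Slc39a5: attccctaagTGCACACctgctaacct
Slc39a11 (promoter 1): gtgggttcgcTGCGCTCtccttccctt
Slc39a11 (promoter 2): cctagggcagTGCACACaccccaggaa

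A core of either form was found in 7 of the 11 windows, of 6 genes, and in 21.4% of the 32851 promoters of the table. TGCACNC was held by 10.4% of all promoters and TGCGCNC by 12.5%. The E-box CACGTG, the letters bound by clock and related factors, was held by 1 window (Slc30a5) and by 6.02% of all promoters. The D-box core TTANNTAA was in none of the 11 windows and in 5.43% of all promoters. These are matches of letters and no measurement of binding.

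ZnO sunscreen was compared with no sunscreen to ask whether a topical zinc product was accompanied by other transporter levels in the liver. In livers of ZnO-UVR mice, the 10 genes differed from Control-UVR by between -0.35 (Slc30a10) and 0.09 (Slc39a2) on the log2 scale, with 5 above and 5 below 0 and a median of 0.00. Limma called 0 of 10 (adjusted p under 0.1, over all 9815 transcripts), the background being 0.0% of transcripts called, and 0 of 10 had an unadjusted p under 0.05. With UVR, in ZnO + UVR against Control + UVR, the differences ran from -0.25 (Slc39a2) to 0.63 (Slc39a4), with a median of 0.06. Again 0 of 10 were called against a background of 0.0%, and 1 of 10 had an unadjusted p under 0.05. The median of all transcripts was 0.00 in the former comparison and -0.01 in the latter.

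The plasma membrane zinc exporter Slc30a1, which cells raise when zinc is high, had levels of 7.13 to 7.64 in Control-UVR (median 7.38) and of 6.98 to 7.73 in ZnO-UVR (median 7.28). In Control + UVR it lay between 6.89 and 7.59 (median 7.26) and in ZnO + UVR between 7.00 and 7.60 (median 7.24). The ranges overlapped throughout, and no group stood apart. The difference of ZnO-UVR from Control-UVR was -0.05 (95% interval -0.32 to 0.22) and that of ZnO + UVR from Control + UVR was 0.06 (-0.23 to 0.35). A rise of Slc30a1 by more than 0.22 on the log2 scale without UVR therefore lay outside the interval. Smaller rises lay inside it, and the end of the interval is no limit of detection. Slc30a5, which loads zinc into the Golgi and secretory vesicles, differed by 0.04 (-0.31 to 0.39) without UVR and by 0.07 (-0.31 to 0.44) with it.

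Slc39a4 is the importer that takes up dietary zinc in the gut and is withdrawn when zinc is plentiful. Its levels lay between 7.90 and 8.46 in Control-UVR (median 8.21), and between 7.76 and 8.82 in ZnO-UVR (median 8.09). In Control + UVR they lay between 6.65 and 8.43 (median 7.81), and in the 5 arrays of ZnO + UVR at 8.09, 8.33, 8.46, 8.50 and 8.32. The ZnO + UVR arrays were thus close together near the top of a wide Control + UVR range, whose lowest value came from replicate 1. The difference was 0.63 (95% interval 0.10 to 1.15, adjusted p = 0.815 by limma), which was not called. Without Control + UVR replicate 1 it was 0.44. Slc39a4 followed the slope of each array, obtained by regressing its transcripts on their means over the 47 arrays (r = 0.678 within groups), and with this slope as a covariate the difference was 0.38. The part of array slope in this value was not otherwise tested.

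Slc39a14, which brings zinc, manganese and iron into hepatocytes and is raised by interleukin 6, differed by 0.00 (-0.43 to 0.44) in ZnO-UVR and by -0.14 (-0.60 to 0.32) in ZnO + UVR against Control + UVR. Of the 27 genes listed for interleukin 6 signalling and the acute phase, 9 were measured. None of them was called in any of the 20 comparisons run, where 0.0% to 4.94% of all transcripts were called. The remaining importers in ZnO-UVR against Control-UVR were Slc39a2 (0.09), Slc39a3 (0.00), Slc39a5 (0.04), Slc39a10 (0.05) and Slc39a11 (-0.02), of which Slc39a2, Slc39a3 and Slc39a10 act mainly at the cell surface and Slc39a5 at the basolateral membrane. The half-width of the 95% interval for a member ran from 0.26 (Slc39a11) to 0.50 (Slc39a4) in this comparison, against 0.29 for the median transcript. The plot of ZnO differences shows these intervals for all 10 genes.

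**Figure D1:**
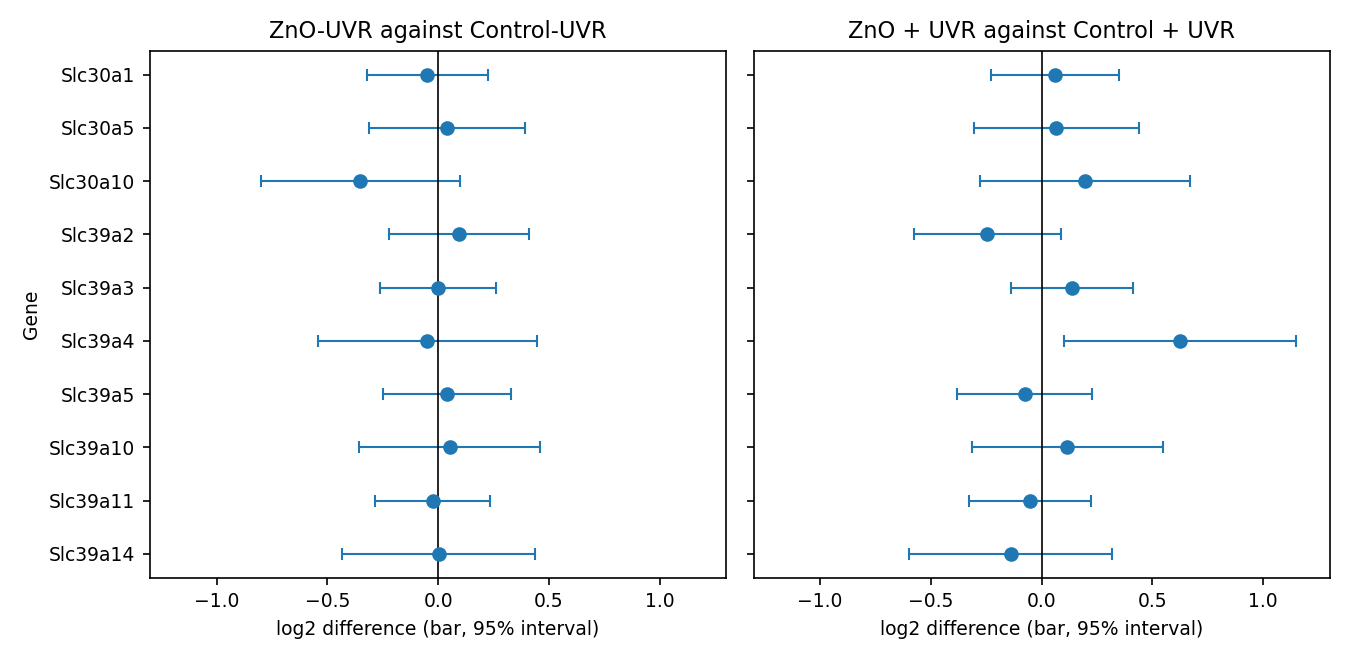
Differences of the 10 transporter genes between ZnO and control livers, without UVR (left) and with UVR (right). The horizontal axis is the log2 difference, each row is a gene, points are limma estimates and bars are 95% intervals. All intervals on the left reach 0, and on the right that of Slc39a4 (0.10 to 1.15) lies above it, though its adjusted p was 0.815.

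Over both UVR conditions, ZnO sunscreen differed from no sunscreen by at most 0.29 (Slc39a4, 95% interval -0.07 to 0.65), and 0 of 10 were called (background 0.0%). Of ZnO + UVR against Control-UVR, 0 of 10 were called (background 0.0%), with Slc30a10 highest at 0.32 (-0.15 to 0.79). The interaction of ZnO sunscreen and UVR, the difference between the effect of ZnO with UVR and that without, was called for 0 of 10 (background 0.0%) and was largest for Slc39a4 at 0.67 (-0.05 to 1.39, adjusted p = 0.985). Over all 9815 transcripts, an unadjusted p under 0.05 was reached by 149 in ZnO-UVR against Control-UVR, 276 in ZnO + UVR against Control-UVR, 579 in ZnO + UVR against Control + UVR, 294 over both UVR conditions and 372 in the interaction. No member's ZnO and control arrays were separated without overlap, against 0.0917% of transcripts in ZnO-UVR, 0.458% in ZnO + UVR against Control-UVR and 0.571% in ZnO + UVR against Control + UVR.

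Slc30a10 was the member that changed, and it was lower than in Control-UVR in 3 of the 4 groups given sunscreens that hold organic filters. Slc30a10 exports manganese from hepatocytes into bile and from the gut into its lumen, and its loss is known to leave manganese in liver and brain. Its levels were 7.58, 8.65, 8.38, 8.13, 7.68 and 8.29 in replicates 1 to 6 of Control-UVR, a group written -UVR and so never irradiated. They were 7.99, 8.30, 8.09, 8.35, 8.25 and 8.48 in Control + UVR, all inside the range of Control-UVR. The difference between these control groups was 0.13 (95% interval -0.32 to 0.58).

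In TiO2-UVR the levels of Slc30a10 were 8.18, 8.13, 8.63, 8.58, 8.41 and 8.22. In TiO2 + UVR they were 7.00, 6.95, 7.22, 6.31, 7.17 and 6.57, so every irradiated array was below every unirradiated one of the same product, and below all of Control-UVR. Slc30a10 fell by 1.25 (SE 0.22) on the log2 scale in TiO2 + UVR against Control-UVR, to 0.421 of the control level, with an adjusted p of 0.0035 by limma. It was the only member called in this comparison, in which 0.693% of transcripts were called and 0.52% called lower, and the only member with no overlap, against 1.07% of transcripts. In TiO2-UVR the difference was 0.24 (-0.21 to 0.69, adjusted p = 0.968), with 0 of 10 members called (background 0.0%).

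In Organic-UVR the levels of Slc30a10 were 7.07, 6.83, 7.30, 7.23, 7.21 and 6.75, again below all of Control-UVR. In Organic + UVR they were 6.55, 7.25, 7.93, 6.68, 6.99 and 7.39, where the array at 7.93 reached into the control range. Slc30a10 fell by 1.05 (SE 0.22) in Organic-UVR, to 0.482 of the control level, with a limma adjusted p of 0.013. It fell by 0.98 (SE 0.22) in Organic + UVR, to 0.505 of the control level, with an adjusted p of 0.0366. Slc30a10 was the only member called in either comparison, where 3.27% and 1.65% of all transcripts were called (2.53% and 1.4% called lower), and the member without overlap in Organic-UVR (background 0.835%), while no member was without overlap in Organic + UVR (1.5%).

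The Organic-UVR call was lost in a fit of its own and the control arrays alone (-1.05, limma adjusted p = 0.136). This setting called 0.0102% of all transcripts there, in place of 3.27%. The Organic + UVR call was lost after quantile normalization (-0.79, limma adjusted p = 0.174), where 0.0713% of all transcripts were called in place of 1.65%. It was also lost without Control-UVR replicate 2 (adjusted p = 0.11), 4 (0.119) or 6 (0.122) and without Organic + UVR replicate 4 (0.228). The difference itself stayed between -1.12 and -0.86 whichever array was left out, near the -0.98 of the full set, and at most 0.428% of all transcripts were called when any of these 4 arrays was left out.

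**Figure D2:**
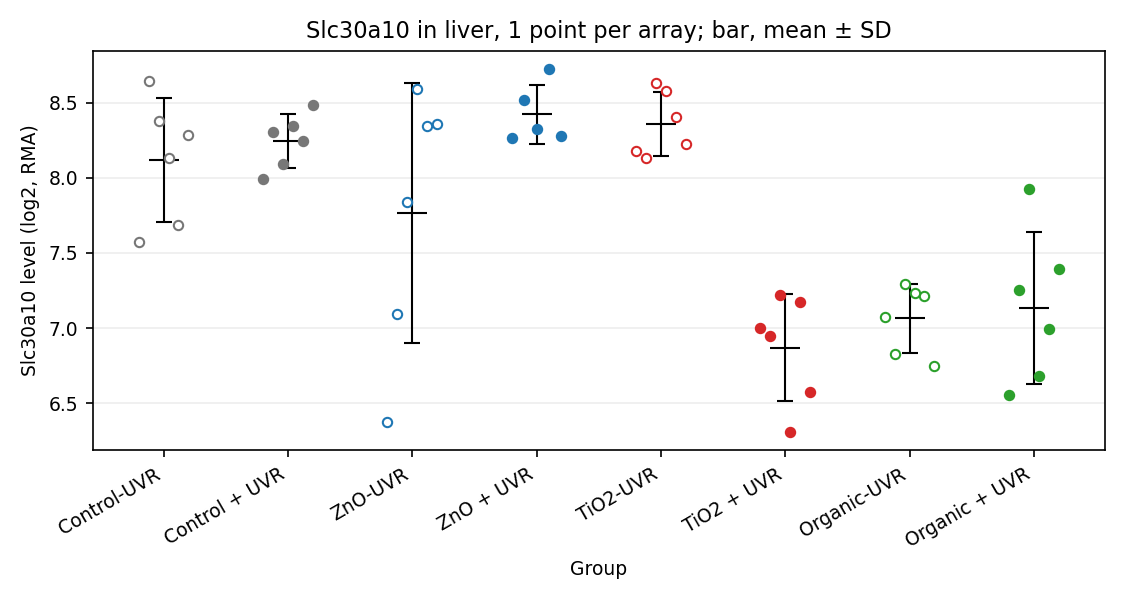
Level of Slc30a10 in the liver of each mouse, by group. The vertical axis is the RMA level on the log2 scale, each point is an array (open without UVR, filled with UVR), and the bars show the mean and SD of a group. TiO2 + UVR (6.31 to 7.22) and Organic-UVR (6.75 to 7.30) lie below all control arrays, and ZnO-UVR spreads from 6.37 to 8.59.

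Livers of ZnO-UVR differed among themselves in Slc30a10 more than those of any other group, ZnO + UVR included. The levels in ZnO-UVR were 6.37, 7.09, 7.84, 8.59, 8.34 and 8.36 in replicates 1 to 6, so that replicates 1 and 2 were below all of Control-UVR and the other four inside its range. The SD was 0.87, against 0.18 to 0.50 in the other groups. The 5 arrays of ZnO + UVR, at 8.27, 8.52, 8.33, 8.72 and 8.28, lay close to the upper part of the control range. The difference of ZnO-UVR from Control-UVR, -0.35 (95% interval -0.80 to 0.10), became -0.12 without replicate 1 and -0.20 without replicate 2, and was called in neither case.

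Comparisons between sunscreens were chosen after the data had been seen, apart from those that pool groups. At matched UVR, Slc30a10 was lower by 1.57 in TiO2 + UVR than in ZnO + UVR (difference -1.57, SE 0.23, adjusted p = 0.000201) and lower by 1.31 in Organic + UVR than in ZnO + UVR (difference -1.31, SE 0.23, adjusted p = 0.00403). In each it was the only member called, against 0.713% and 0.54% of transcripts, and the only member whose arrays did not overlap, against 1.23% and 1.73%. Without UVR, Organic-UVR and ZnO-UVR overlapped, with a difference of -0.70 (95% interval -1.15 to -0.25, adjusted p = 0.323) and 0 of 10 members called (background 0.0%). It was called without ZnO-UVR replicate 1 (-0.94, adjusted p = 0.0548, with 0.204% of transcripts called) and with array weights (-0.81, adjusted p = 0.0402, with 0.856% called). TiO2-UVR and ZnO-UVR differed by 0.59 (0.14 to 1.04, adjusted p = 0.999), with 0 of 10 members called (background 0.0%).

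In mice given the TiO2 sunscreen, Slc30a10 differed with UVR. The comparison of TiO2 + UVR with TiO2-UVR and the TiO2 and organic interactions below were also chosen after the data had been seen. TiO2 + UVR was lower than TiO2-UVR by 1.49 (difference -1.49, SE 0.22, adjusted p = 0.000129), the only member called against 0.652% of transcripts and the only one without overlap against 0.734%. The interaction, which sets this against the UVR difference of the controls, was -1.62 (95% interval -2.25 to -0.98, adjusted p = 0.0196) and was called for 1 of 10 members, against 0.173% of transcripts. For the organic sunscreen the interaction was -0.06 (-0.69 to 0.57), with 0 of 10 called (background 0.0%). Over all sunscreens, UVR moved Slc30a10 by -0.16 (-0.38 to 0.07), a mean over products that were unlike, and 0 of 10 members were called (background 0.0%). Control + UVR against Control-UVR also called 0 of 10, against 0.0509% of transcripts.

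Pooled, the 24 arrays of the TiO2 and Organic sunscreens were lower in Slc30a10 than the 23 of the Control and ZnO groups by 0.79 (difference -0.79, SE 0.11, adjusted p = 3.96e-05), and this mean includes TiO2-UVR, whose levels were not lower. Slc30a10 was the only member called, against 4.94% of transcripts called and 3.4% called lower. ZnO against the TiO2 and Organic sunscreens was 0.75 higher (SE 0.14, adjusted p = 0.00373), with 1 of 10 called against 0.917%. These comparisons share arrays with those above, so they add no independent support. In the order of group means, Slc30a10 went from ZnO + UVR (8.42) through TiO2-UVR (8.36), Control + UVR (8.24), Control-UVR (8.12), ZnO-UVR (7.77), Organic + UVR (7.13) and Organic-UVR (7.06) to TiO2 + UVR (6.87). No step between neighbours in this order was larger than the greater SD of its 2 groups, the widest being the 0.63 between ZnO-UVR and Organic + UVR.

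**Figure D3:**
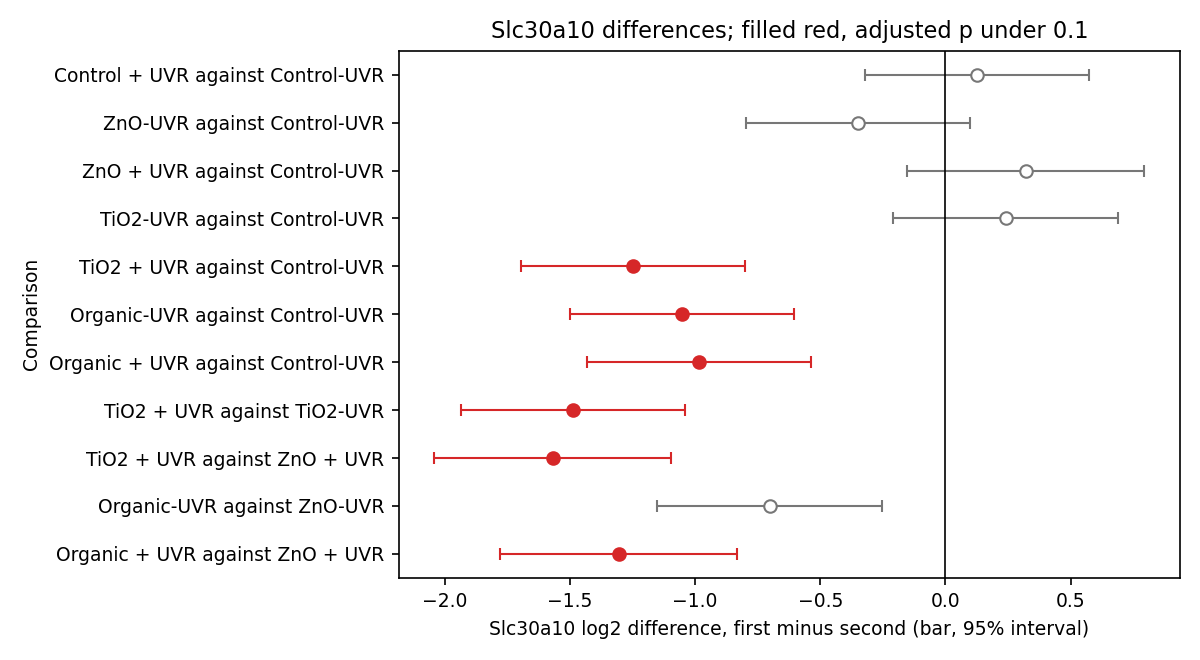
Differences of Slc30a10 between groups. The horizontal axis is the log2 difference, first group minus second, each row is a comparison, bars are 95% intervals from limma, and filled red points have an adjusted p under 0.1. Comparisons of TiO2 + UVR with other groups lie between -1.25 and -1.57, and the intervals of the ZnO groups against Control-UVR include 0.

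The other 9 transporters were called in none of the 20 comparisons run, in which 0.0% to 4.94% of all transcripts were called. Their group means spanned from 0.21 (Slc39a11 and Slc39a3) to 0.65 (Slc39a4) on the log2 scale, against 1.55 for Slc30a10. Among the importers, Slc39a2 was 0.36 higher in Organic-UVR than in Control-UVR (95% interval 0.05 to 0.68, adjusted p = 0.201 by limma). Its levels were 5.13 to 6.05 (median 5.49) in Control-UVR and 5.44 to 6.17 (median 5.96) in Organic-UVR, so the groups overlapped. Slc39a5 was 0.30 higher in Organic + UVR (0.01 to 0.59, adjusted p = 0.276), at 5.28 to 5.88 (median 5.64) against 5.03 to 5.56 (median 5.31). With array weights Slc39a2 was called in Organic-UVR at 0.45 (adjusted p = 0.05), where this setting called 8.57% of all transcripts in place of 3.27%. It also called Slc39a5 in Organic + UVR at 0.34 (adjusted p = 0.0885), with 14.9% of all transcripts in place of 1.65%. Slc39a5 was called too without Organic + UVR replicate 1 (0.39, adjusted p = 0.0971), when 12.1% of all transcripts were called. Calls thus became more frequent over the whole table under these settings, and the gained calls are not particular to these genes.

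Slc39a10, an importer of the cell surface and the dimmest member, was 0.25 lower with UVR over all sunscreens (difference -0.25, 95% interval -0.46 to -0.04, adjusted p = 0.727) and was not called. Its lowest level, 3.97, and its highest, 5.55, were both in Control + UVR. Slc39a4 was 0.27 lower in the TiO2 and Organic sunscreens than in the Control and ZnO groups (difference -0.27, -0.52 to -0.01, adjusted p = 0.229). Slc39a11, an importer of inner membranes such as the Golgi, and Slc39a3 varied least between groups, and no group of either stood apart in the plot of the other 9 genes.

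**Figure D4:**
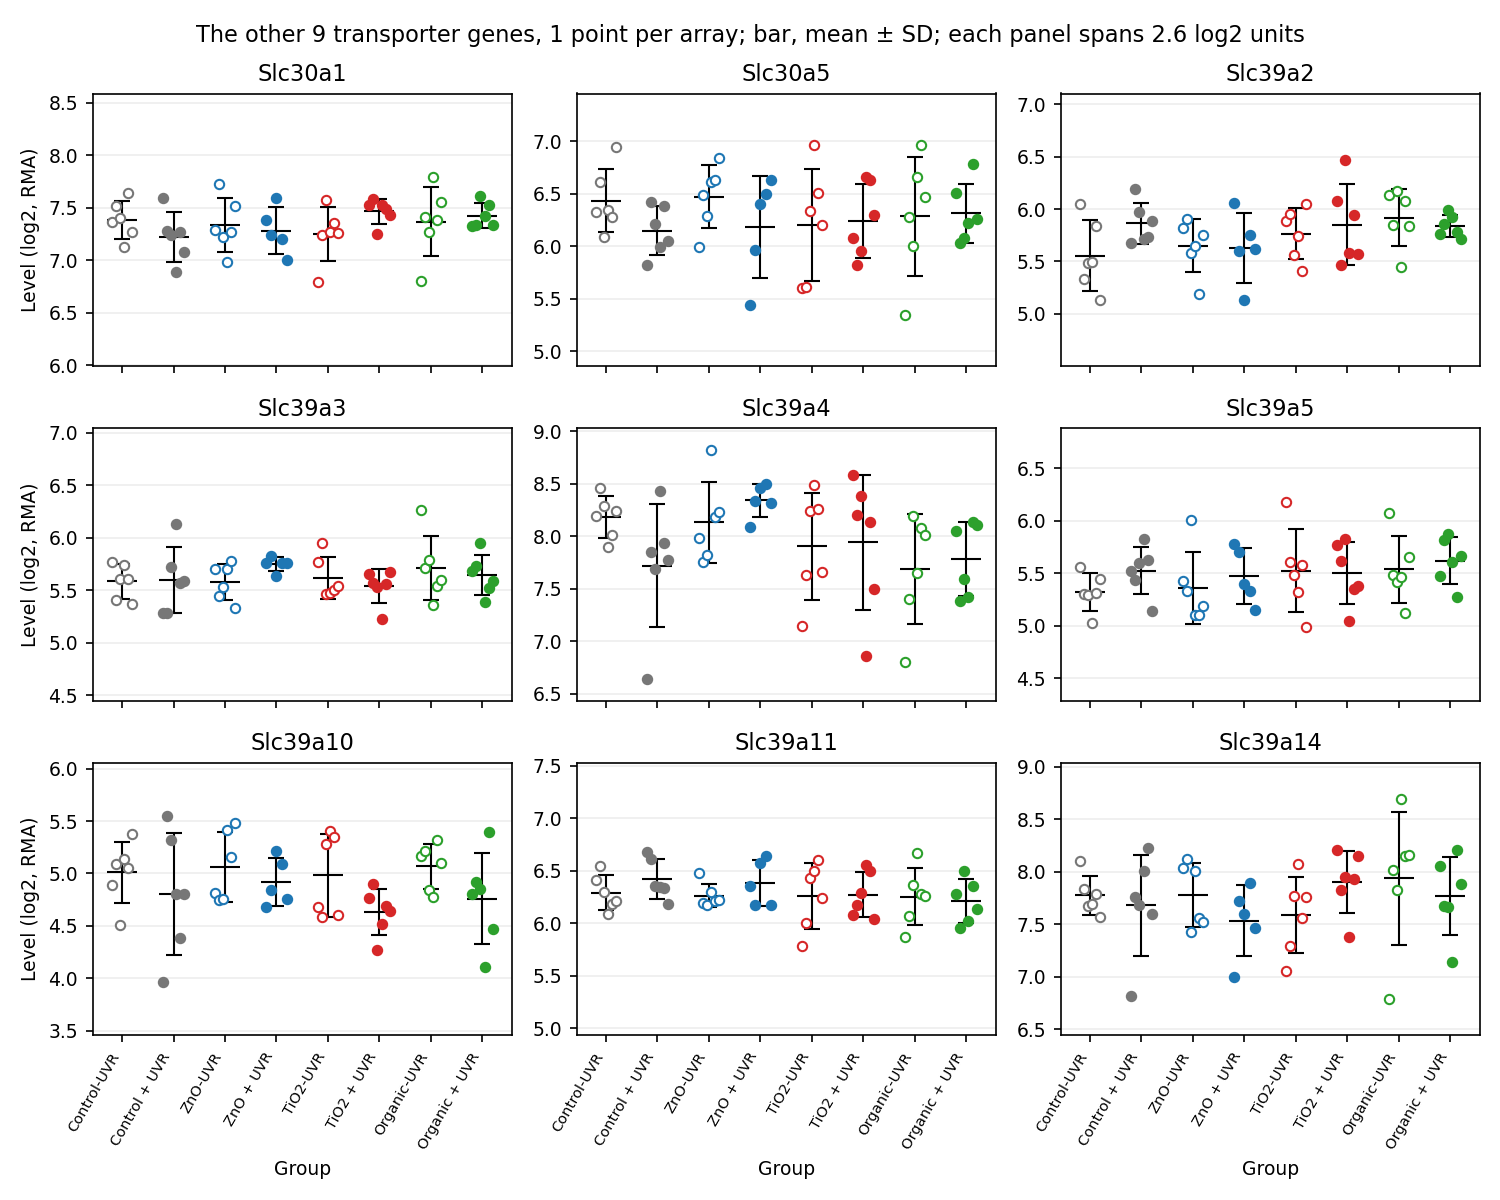
Levels of the other 9 transporter genes in each array, by group. Vertical axes are RMA levels on the log2 scale, all panels span 2.6 units, points are arrays (open without UVR, filled with UVR), and bars show mean and SD. The groups overlap in every panel, and the group means of Slc39a4, the widest of these genes, span 0.65.

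The members varied together to different degrees. After the group means were taken away, the 45 pairs of members had correlations from -0.63 (Slc30a5 with Slc39a5) to 0.656 (Slc39a4 with Slc39a14), with a median of 0.01. These are descriptions over 47 arrays that share their RNA, hybridisation and normalization. The slope of an array followed Slc39a14 (r = 0.728), Slc30a5 (0.696), Slc39a4 (0.678) and Slc39a5 (-0.556) within groups, and followed Slc30a10 less (0.202). Organic-UVR replicate 1 had the shallowest slope, 0.772. With slope as a covariate the count of members called was the same in each comparison.

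Slc30a10 had close neighbours. Over the 47 arrays and with group means taken away, the transcripts most like it were Asap2 (r = 0.89), Ypel2 (0.811), Lgalsl (0.778), Pnkd (0.768) and Smagp (0.759). Those most opposed were Coq10b (-0.736) and Ciart (-0.669). ZnO-UVR replicates 1 and 4 lay farthest from the median of Slc30a10 within groups, and without both of them r was 0.873 for Asap2 and -0.592 for Ciart. The clock gene Npas2, a partner of Bmal1 that binds E-boxes, had r = 0.744 within groups over the 47 arrays.

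Asap2, an Arf GTPase activator, lay between 6.35 and 7.59 (median 7.32) in Control-UVR and between 5.25 and 6.22 (median 5.92) in TiO2 + UVR. In replicates 1 to 6 of ZnO-UVR, Asap2 was at 5.81, 5.93, 6.97, 7.55, 7.48 and 7.63. The low arrays were replicates 1 and 2, as they were for Slc30a10. Ciart, a repressor of the clock, was at 9.04 and 8.53 in those replicates and between 4.87 and 5.64 in the other four, and Npas2 was at 4.39 and 4.02 against 6.04 to 7.00. Control-UVR, which had neither sunscreen nor UVR, held low arrays of the same kind. Its replicates 1 and 5 had Npas2 at 4.12 and 4.20, against 5.87 to 6.71 in the other four, and the group's lowest Asap2 (6.63 and 6.35) and highest Ciart (7.15 and 6.88). They also had its lowest Slc30a10, 7.58 and 7.68. TiO2 + UVR held Npas2 from 3.86 to 4.46 and Ciart from 7.34 to 9.13. Other arrays did not share the whole pattern. Npas2 was low in TiO2-UVR replicate 2, at 4.63 against 6.12 to 7.30 in the rest of that group. That array's Slc30a10 (8.13), Asap2 (6.99) and Ciart (5.97) lay near the next arrays of the group (8.18, 7.02 and 5.64). Ciart was lowest in replicate 6 of Organic + UVR (5.40) and replicate 1 of Organic-UVR (6.02), where Slc30a10 was 7.39 and 7.07.

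**Figure D5:**
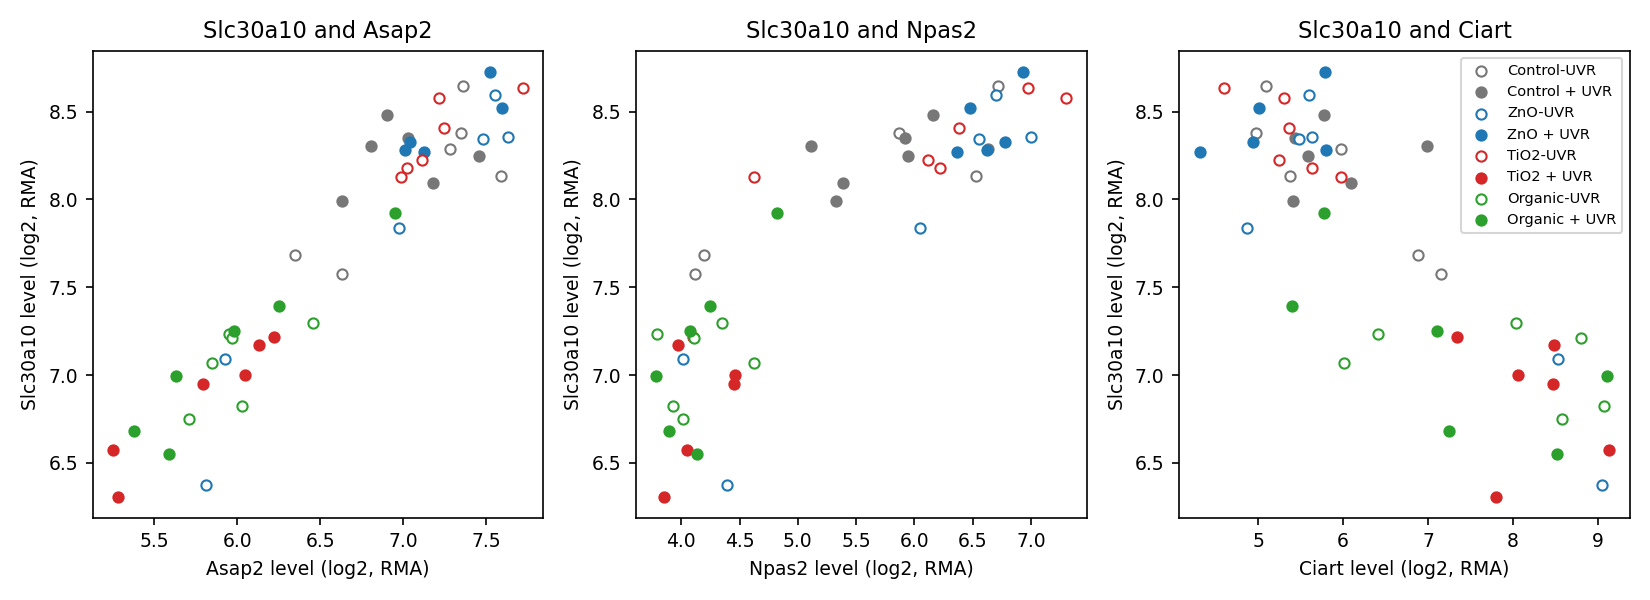
Level of Slc30a10 against those of Asap2, Npas2 and Ciart in the 47 arrays. All axes are RMA levels on the log2 scale, each point is an array, colours are sunscreens and filled points had UVR. Slc30a10 is higher where Asap2 is higher (r = 0.89 within groups) and where Ciart is lower (r = -0.669), and ZnO-UVR replicates 1 and 2 lie among the TiO2 + UVR and Organic arrays.

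Genes of the circadian clock moved in the same comparisons as Slc30a10. Of 18 listed, 10 were measured, and 8 of them were called in at least 1 comparison. In TiO2 + UVR against Control-UVR, 5 of 10 were called, against 0.693% of transcripts. Ciart (2.30), Tef (0.85) and Per1 (0.74) rose, and Npas2 (-1.53) and Nfil3 (-0.97) fell. In Organic-UVR 6 of 10 were called, among them Npas2 (-1.54), against 3.27% of transcripts. In Organic + UVR 2 of 10 were called, Npas2 (-1.51) and Nfil3 (-1.14), against 1.65%. The median difference of the 10 was 0.46 in TiO2 + UVR, 0.44 in Organic-UVR and 0.26 in Organic + UVR. This median mixes genes that rose with genes that fell, so it gives no common direction. The median over all transcripts lay between -0.03 and 0.03 in every comparison. The hour at which each liver was taken is not given in the sources used here. The part of the clock in the Slc30a10 differences was not tested.

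Other genes of zinc and manganese handling were given for comparison. Of the 24 listed members of the Slc30 and Slc39 families 12 were measured, and those beside the 10 above, Slc30a8, which loads zinc into insulin granules, and Slc39a9, an importer of the Golgi and cell surface, were not called in any comparison. Of 17 other handling genes 5 were measured (Tmem163, Slc11a1, Slc11a2, Slc40a1 and Hrg), with none called and medians between -0.17 and 0.20. Over all transcripts, 0.0% to 4.94% were called in a comparison. Of 20 listed zinc or manganese enzymes of the liver 6 were measured, and Bhmt, the zinc enzyme that methylates homocysteine from betaine, was called in 6 comparisons. Bhmt fell by 0.54 (SE 0.14, limma adjusted p = 0.0398) in Organic-UVR against Control-UVR, where 3.27% of transcripts were called. It fell by 0.58 (SE 0.14, limma adjusted p = 0.0347) in TiO2 + UVR against TiO2-UVR, where 0.652% were called. In Organic + UVR, where Slc30a10 was low, the mean of Bhmt was 8.47, against 8.56 in Control-UVR. Arg1, the manganese enzyme of the urea cycle, and Sod1, Dpys, Upb1 and Fbp1 were called in none.

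The tissue was checked against cell markers. The 14 measured hepatocyte markers had a mean level of 11.29 to 12.06 in single arrays, and 1 of them, the histidine-degrading enzyme Hal, was called in 7 of the 20 comparisons. Hal was lower in TiO2 + UVR against Control-UVR, ZnO + UVR and TiO2-UVR, in Organic-UVR against Control-UVR, in Organic + UVR against ZnO + UVR and in the pooled TiO2 and Organic groups against Control and ZnO, and higher in ZnO against those pooled groups. Slc30a10 was called in the same direction in all 7, where 0.54% to 4.94% of all transcripts were called. In bulk liver, fewer cells of a type and less RNA in each cell cannot be told apart. Of 5 genes listed as bile duct markers, 4 were called in 4 comparisons. Krt18 was lower and Krt7 higher in Organic-UVR (3.27% of transcripts called), and Krt7 was higher in Organic + UVR (1.65%). Krt8, Krt18 and Sox9 were lower in the pooled TiO2 and Organic groups against Control and ZnO (4.94%), and Sox9 was higher in ZnO against those pooled groups (0.917%). Krt8 and Krt18 had mean levels of 9.22 and 9.21, against 4.65 for Krt7 and 4.32 for Krt19, which was not called. Levels and directions of these genes were mixed, and the part of duct cells in their calls was not tested. Of 3 endothelial markers, Pecam1 was lower in 2 comparisons. These were Organic + UVR against Control-UVR (1.65% of transcripts called) and the pooled TiO2 and Organic groups against Control and ZnO (4.94%). The measured markers of macrophages (4), stellate cells and matrix (6), lymphocytes (5), red cells (1), acinar pancreas (2) and gut epithelium (3) were called in none of the comparisons. The share of all transcripts called in a comparison was 0.0% to 4.94%. The mean of the gut markers was 3.73 to 4.66 in single arrays, and ZnO-UVR replicate 4 had the highest level of the red cell gene Slc4a1, 8.16. The part of these cells in the Slc30a10 differences was not tested.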

How the data were processed

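The authors deposited 1 log2 value per probeset and array, made by RMA (robust multi-array average), which the submitters' processing notes name too. Their methods describe batches with 1 chip of each group, and removal of batch effects. Whether the deposited values had that step is not given in the sources used here. Of 16383 probesets, 6568 controls were left out and 9815 transcripts tested. The study's methods name more transcripts than this, so counts of measured genes and shares of transcripts cover a part of the array. A gene not measured here may still have been on it. Symbols came from the platform annotation, matched to RefSeq by Entrez number for 7421 of 7450 transcripts with 1 symbol.

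A limma 3.58.1 model (R 4.3.3) held all groups and the replicate number as a block, which the labels do not call a batch. p-values were adjusted by Benjamini-Hochberg over all transcripts and called under 0.1. The labels call the arrays of a group biological replicates. Each member was given by its brightest probeset. Every member was named, with called genes of the lists, the 5 transcripts most like a called member within groups and the 2 most opposed. Members, lists, motifs and neighbours shown were chosen with earlier results of these data known. Asap2, Npas2 and Ciart were shown by array after their values were seen. Scripts were tested on simulated data. Alternatives were no block, only the groups compared, quantile normalization, array weights, no dim transcripts, an adjusted p under 0.05, array slope as a covariate, the brightest transcript of a gene and each array left out in turn.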

Additional observations from a re-analysis of the deposited data

Results flagged for a closer look

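Of 80 sets of arrays, 1 for each gene and group, 2 held an array far from the rest, and chance gives about 1 in 20. Slc39a3 in TiO2 + UVR replicate 4 was at 5.23, with the nearest array at 5.53 and the highest at 5.68. Slc39a5 in ZnO-UVR replicate 3 was at 6.01, with the nearest array at 5.43 and the lowest at 5.11. The UVR difference of Slc30a10 in mice given TiO2 sunscreen departed from that of the controls by -1.62 on the log2 scale in the limma interaction test, with an adjusted p of 0.0196. This interaction was chosen for testing after the data had been seen.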

How the results depend on the processing

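The values here are counts of the 10 members called. With array weights the count was 2 in Organic-UVR against Control-UVR (Slc30a10 and Slc39a2), 2 in Organic + UVR against Control-UVR (Slc30a10 and Slc39a5) and 1 in Organic-UVR against ZnO-UVR (Slc30a10). Array weights called more of all transcripts too: 8.57%, 14.9% and 0.856% in these comparisons, in place of 3.27%, 1.65% and 0%. The count of members was 0 in Organic-UVR against Control-UVR when only those groups were fitted, with 0.0102% of all transcripts called. It was 0 in Organic + UVR against Control-UVR after quantile normalization, with 0.0713% of all transcripts called. Leaving out each array gave 0 to 2 in Organic + UVR against Control-UVR, 0 to 1 in Organic-UVR against ZnO-UVR and the count of the full set in each other comparison. No called value changed sign. Of 10960 single values, 6 lost and 5 gained a call. The mean of several probesets could not be tried, since each member had 1.

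Without the replicate block, 1 member was called in TiO2 + UVR, Organic-UVR and Organic + UVR against Control-UVR and 0 in each ZnO comparison with controls, as with the block, and no member count changed. Over all transcripts the block moved counts: 321 were called in Organic-UVR with it and 92 without, 162 and 33 in Organic + UVR, 68 and 30 in TiO2 + UVR. Of 161 pairs of arrays with the same number, 103 had correlated deviations over 0.1 (mean r 0.153, against -0.03 for different numbers), so the numbers do not pair every array. The number of arrays limits what can be seen: intervals of members in comparisons of 6 with 6 arrays were 0.26 to 0.50 wide on each side.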
